A study of Mus musculus with 7 samples.

Results

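The genes described here are Oxtr, the oxytocin receptor, Avpr1a, the vasopressin V1a receptor, and Lnpep, the membrane aminopeptidase that cleaves oxytocin and vasopressin. They were found by their symbols, and all 3 listed genes were among the 24421 gene symbols of the count files. RNA of the cerebellum was sequenced in 4 libraries titled CicKO, of genotype En1-Cre; Cicflox/flox, and in 3 libraries titled Wildtype, of genotype Cicflox/+, all on the C57BL/6 strain, with no treatment named. Every library therefore carries a floxed Cic allele, the controls also carry an intact one, and En1-Cre is named for the knockouts only, so that Cre itself and the loss of Cic cannot be told apart. En1 is active in the embryonic midbrain and anterior hindbrain, so cells of other origin in the cerebellum keep Cic. Age, sex and litter are not given, and nothing states that each library is a separate animal, so p-values measure the spread between these libraries, which may be partly technical.

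Oxytocin and vasopressin are closely related peptides made mainly by hypothalamic neurons. They act on a small family of receptors coupled to G proteins: Oxtr, Avpr1a and Avpr1b signal mainly through Gq and phospholipase C, whereas Avpr2 acts through Gs and cyclic AMP. After activation such receptors are phosphorylated by receptor kinases and bound by arrestins, which end the signal, and extracellular peptidases such as Lnpep remove the peptides. Cic encodes a transcriptional repressor that binds DNA, and the comparison asks which cerebellar transcripts differ when it is lost.

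The libraries held 102653765 to 121285349 gene counts, so that 3 counts correspond to 0.0247 to 0.0292 CPM, the usual count scaled to a common library size. Such limits, and the intervals given for counts, take in counting error alone, since the cDNA was amplified and no molecular identifiers are named. Cic, the targeted gene, was at 147, 146, 144 and 147 CPM in knockouts 1 to 4 and at 216, 257 and 223 CPM in controls 1 to 3. It fell by 0.66 on the log2 scale (SE 0.0622, edgeR adjusted p = 0.00256), and counts per gene do not show which exons were lost. The summed levels of cerebellar markers were high throughout: 8 Purkinje cell genes gave 10845 to 13962 CPM and 7 granule neuron genes 4564 to 5455 CPM per library. Knockout 3 and control 3 stood apart by their choroid plexus transcripts, with 8452 and 6119 CPM for 7 markers against 44.3 to 142 CPM in the other 5 libraries. Xist, which is transcribed from the inactive X chromosome, was at 1556 and 1596 CPM in knockouts 1 and 2 and at 0.456 to 14.7 CPM in the other libraries.

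Oxtr was higher in every knockout library than in any control. The files gave 1078, 1021, 590 and 876 Oxtr reads in knockouts 1 to 4 and 178, 151 and 192 reads in controls 1 to 3. Scaled for library size by TMM, these were 10.6, 10.0, 5.19 and 8.33 CPM in the knockouts and 1.45, 1.41 and 1.68 CPM in the controls. Knockout 3, the lowest of its group, still lay 3.08-fold above the highest control, while the 3 controls stayed within 1.19-fold of each other.

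The group means were 8.53 ± 2.43 CPM (SD, n = 4) and 1.52 ± 0.147 CPM (SD, n = 3), a ratio of 5.63 and a fitted log2 fold change of 2.49 (SE 0.251). By fitted fold change Oxtr ranked 16th among the 16905 genes tested. It ranked 5th among the 13155 of these whose mean reached 1 CPM, with chromosome Y genes, Xist, unnamed gene models and pseudogenes left out. Among all 16905 genes tested, edgeR called 1.25% higher and 0.828% lower in the knockout (2.08% either way). Groups without overlap were found for 7.06% of genes on the higher side and 8.36% on the lower side. The genes of this family were chosen with this contrast already known, so their levels are a description: no test is given for them and nothing is read from these shares. Of the 3 genes, Oxtr alone had groups that did not overlap.

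**Figure D1:**
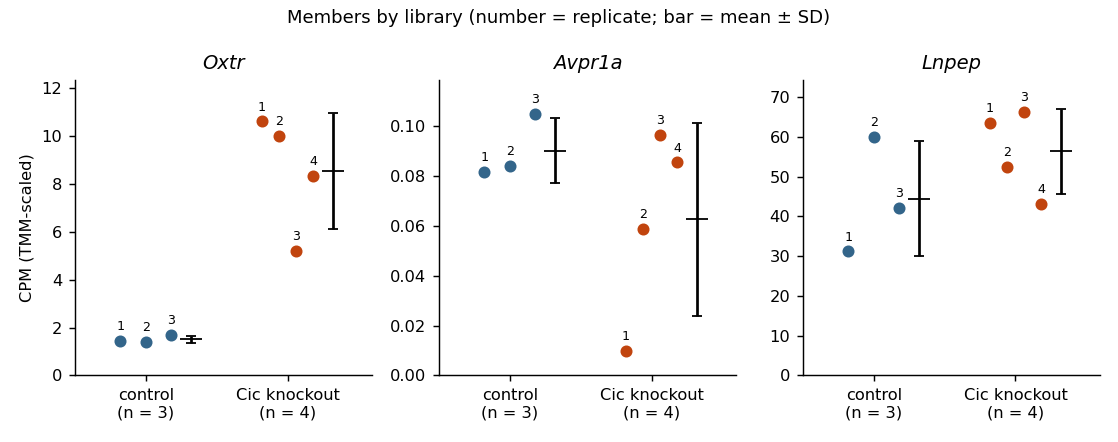
TMM-scaled CPM of Oxtr, Avpr1a and Lnpep in each library (points, with the replicate number), with the mean and SD of each group beside them; the vertical scales differ. Oxtr lies at 5.19 to 10.6 CPM in the knockouts and at 1.41 to 1.68 CPM in the controls, whereas the groups overlap for Avpr1a and Lnpep.

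The spread of Oxtr within the knockouts was wider than in the controls, with a coefficient of variation of 28.5% against 9.68%. Its lowest knockout level, 5.19 CPM, was in the library with the most choroid plexus transcripts. Control 3, the other such library, was the highest control, at 1.68 CPM beside 1.45 and 1.41 CPM in controls 1 and 2. With the choroid plexus level as a covariate the log2 fold change was 2.38, and without both of those libraries it was 2.75; the part of choroid plexus tissue in the level of knockout 3 was not tested. The highest levels, 10.6 and 10.0 CPM, were in the 2 libraries rich in Xist, and no control was rich in it. The knockouts with little Xist were at 5.19 and 8.33 CPM, against 1.41 to 1.68 CPM in the controls, and with Xist as a covariate the log2 fold change was 2.26. The part of sex in the Oxtr levels was not tested.

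Oxtr lies on chromosome 6 at 112473683 to 112489943 on the minus strand (GENCODE M21, GRCm38), and Cav3 at 112459505 to 112472872 on the plus strand. Cav3, the gene of the muscle caveolin, thus ends 810 bases from the 3′ end of Oxtr. The start regions of this pair of genes are shown because they are neighbours that were both higher in every knockout. The stretches are taken from RefSeq promoter windows of GRCm38.p6, cut where the GENCODE gene begins, and are written 5′ to 3′ on the strand of the gene. That of Oxtr is chr6:112489944-112490075 (132 bases, minus strand) and that of Cav3 is chr6:112459255-112459504 (250 bases, plus strand).
Oxtr: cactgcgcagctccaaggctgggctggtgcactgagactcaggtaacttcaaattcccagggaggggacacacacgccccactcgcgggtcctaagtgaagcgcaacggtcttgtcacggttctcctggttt
Cav3: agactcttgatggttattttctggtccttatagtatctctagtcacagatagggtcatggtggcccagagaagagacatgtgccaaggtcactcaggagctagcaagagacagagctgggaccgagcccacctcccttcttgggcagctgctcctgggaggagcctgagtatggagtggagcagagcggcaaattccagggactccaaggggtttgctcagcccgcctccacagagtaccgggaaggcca

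CIC binds DNA at octamers of the form TGAATGAA, TGAATGGA, TCAATGAA or TCAATGGA. These were searched on both strands in the RefSeq promoter windows, which run from 250 bases before to 50 bases after each start. Of 32851 such windows 3.835% held at least 1 octamer, and those of Oxtr, Cav3, Avpr1a and Lnpep held 0. The windows of Etv5, a gene known as a CIC target, held 0 as well. The shorter core AATGAA or AATGGA, which lies inside the octamers, was in 24.4% of the 250-base stretches before the RefSeq starts. By the GENCODE coordinates, the whole Lnpep stretch and part of the Oxtr stretch lie inside the gene. The core was in 0 of the stretches of Oxtr, Cav3, Avpr1a and Lnpep, so the sequences above have no capitals. These letters are absent from these windows, which says nothing about sites elsewhere at the locus.

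Avpr1a was close to the detection limit in every library. The files gave 1, 6, 11 and 9 reads in the 4 knockouts and 10, 9 and 12 reads in the 3 controls, and the gene did not pass the low-count filter. These reads correspond to 0.00985, 0.0588, 0.0967 and 0.0856 CPM and to 0.0816, 0.0841 and 0.105 CPM. The groups overlapped, and only knockout 1, with its 1 read, fell below the limit of 3 counts. Over each group the reads summed to 27 (exact 95% Poisson interval 17.8 to 39.3) in the knockouts and 31 (21.1 to 44.0) in the controls. The means were 0.0627 ± 0.0387 CPM (SD, n = 4) and 0.0903 ± 0.0130 CPM (SD, n = 3), a ratio of 0.695, and the intervals of the sums overlapped.

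Lnpep was expressed well above both receptors, and its groups overlapped. Its reads numbered 6452, 5361, 7540 and 4540 in knockouts 1 to 4 and 3824, 6424 and 4808 in controls 1 to 3. This gave 63.5, 52.5, 66.3 and 43.2 CPM in the knockouts and 31.2, 60.0 and 42.1 CPM in the controls. Control 2 lay above knockouts 2 and 4, and the other controls lay below every knockout. The means were 56.4 ± 10.6 CPM (SD, n = 4) and 44.5 ± 14.5 CPM (SD, n = 3), with a fitted log2 fold change of 0.34 (SE 0.243) that became 0.62 without control 2 and 0.15 without control 1.

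The Lnpep levels of the controls, but not those of the knockouts, followed the order of the share of entries outside features. The share of entries that the counting assigned to no annotated feature was 18.2%, 18.4%, 19.0% and 18.8% in knockouts 1 to 4 and 16.0%, 18.6% and 16.5% in controls 1 to 3. The groups overlapped in this share (18.6 ± 0.340% and 17.0 ± 1.36%, two-sided exact permutation p = 0.0857, where the smallest possible p over 35 splits is 0.0286). Controls 1 and 3, lowest in this share, also had the lowest Lnpep levels, whereas control 2 was within the range of the knockouts in both. Among the knockouts this order did not hold: knockout 4, at 18.8%, had the lowest Lnpep level, 43.2 CPM, and knockout 1, at 18.2%, had 63.5 CPM. Knockout 3, however, was highest in both, at 19.0% and 66.3 CPM. With the share as a covariate the log2 fold change of Lnpep was -0.071 (SE 0.255) and that of Oxtr was 2.72 (SE 0.377). Since controls 1 and 3 lay below every knockout in this share, such a fit separates share and genotype only poorly. What sets the share was not tested. Control 2 had the lowest Oxtr level of all libraries, 1.41 CPM, at a share within the range of the knockouts.

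**Figure D2:**
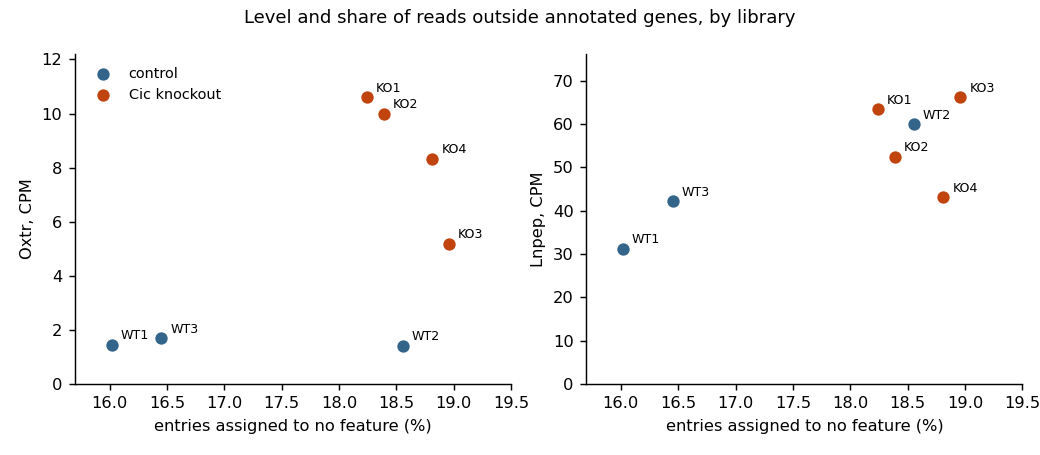
TMM-scaled CPM of Oxtr (left) and Lnpep (right) in each library against the percentage of entries assigned to no feature, with knockouts (KO) and controls (WT) in different colours. Control 2, at 18.6%, sits among the knockouts for Lnpep (60.0 CPM) and with the other controls for Oxtr (1.41 CPM).

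The peptides themselves and the other receptors of the family were at low levels. Of Oxt, Avp, Avpr1b and Avpr2, 3 passed the low-count filter and 0 were called by edgeR or by DESeq2, with 0 at an unadjusted p below 0.05. Oxt, the gene of the oxytocin precursor, had 13, 23, 16 and 10 reads in the knockouts and 34, 20 and 14 in the controls. Its log2 fold change was -0.41 (SE 0.400, edgeR adjusted p = 0.662). Avp, the gene of the vasopressin precursor, had 31, 33, 6 and 7 reads in the knockouts and 35, 22 and 31 in the controls (log2 fold change -0.45, SE 0.615, edgeR adjusted p = 0.767). Knockouts 3 and 4 were low in Avp, and the other 5 libraries held 22 to 35 reads.

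Avpr2, the kidney-type vasopressin receptor, had 49, 37, 42 and 46 reads in the knockouts and 27, 60 and 33 in the controls (log2 fold change 0.21, SE 0.337, edgeR adjusted p = 0.799). Of its 2886 exonic bases 2347 are shared with Arhgap4 on the opposite strand, so its level is uncertain where strand was not used in counting. Avpr1b, the receptor of pituitary corticotrophs, had at most 1 read in any library and was not tested. The values of the 3 tested genes moved widely with the analysis. The log2 fold change of Avpr2 was -0.032 without control 1, 0.69 without control 2 and -0.37 with the share outside features as a covariate. That of Avp ran from -1.64 with Xist as a covariate to 0.20 with the share outside features, and that of Oxt from -0.69 without knockout 2 to -0.063 without control 1.

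Levels of different genes were compared as RPKM, the CPM divided by the kilobases of merged exons. In the controls the order was Lnpep at 3.14 ± 1.03 RPKM, Avp at 0.441 ± 0.0741, Oxt at 0.364 ± 0.145, Oxtr at 0.316 ± 0.0306, Avpr2 at 0.124 ± 0.0623, Avpr1a at 0.0338 ± 0.00485 and Avpr1b at 0.00150 ± 0.00130 (SD, n = 3). Neither Avp and Oxt nor Oxt and Oxtr differed by more than their spread, whereas Oxtr and Avpr2 did. In the knockouts Oxtr stood at 1.78 ± 0.507 RPKM (SD, n = 4), between Lnpep at 3.99 ± 0.752 RPKM and Avp at 0.324 ± 0.255 RPKM. Among 23334 genes with a known exon length, the mean RPKM of Oxtr was at percentile 40.8 in the controls and 53.6 in the knockouts, and that of Avpr1a was at 28.7 and 26.7. Because whole tissue was measured, more cells with a transcript and more transcript per cell cannot be told apart.

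Cav3 rose in the knockout from a low level. Its reads numbered 46, 56, 33 and 53 in the knockouts and 17, 18 and 15 in the controls, with no overlap between the groups. Its mean was 0.449 ± 0.113 CPM (SD, n = 4) against 0.146 ± 0.0194 CPM (SD, n = 3), a log2 fold change of 1.61 (SE 0.299, edgeR adjusted p = 0.0367). Cav3 begins directly after the second stretch printed above. As for Oxtr, knockout 3 was the lowest of the knockouts. The Cav3 call was lost without knockout 1 (adjusted p = 0.107), knockout 2 (0.0940), knockout 4 (0.106), control 1 (0.145) or control 3 (0.153), with Xist (0.128) and with the share of entries outside features (0.318) as a covariate, within a range of 0.00365 to 0.318 over all alternatives. GENCODE M21 lists 0 exonic bases shared by the 2 genes, and for every 100 Oxtr reads there were 4.27 to 6.05 Cav3 reads in the knockouts and 7.81 to 11.9 in the controls; whether reads from beyond the annotated end of Oxtr were counted for Cav3 was not tested.

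Around the other family members less was measured. Avpr1a lies on chromosome 10 at 122448499 to 122453452, and 0 other genes of the files lie within 100 kilobases of it. Lnpep lies on chromosome 17 at 17521410 to 17625050, and its neighbour Lix1, 62022 bases away, was at 10.1 ± 1.20 CPM (SD, n = 4) in the knockouts and 6.97 ± 1.34 CPM (SD, n = 3) in the controls. Lix1 was not called by edgeR (log2 fold change 0.54, SE 0.152, adjusted p = 0.128), although its groups did not overlap, and DESeq2 called it higher (adjusted p = 0.0146). Of the remaining neighbours, Ssu2, 85659 bases from Oxtr, had 1 to 9 reads per library, and Vmn2r90, near Lnpep, had 0 in every library. Of the 2 neighbouring genes that passed the low-count filter 1 was called, Cav3, where 2.08% of all genes were.

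Among the genes that act after the receptors 2 rose, Arrb1 and Grk5. Of 27 genes for G proteins, phospholipases, protein kinase C forms, receptor kinases, arrestins and regulators, edgeR called 2 higher (7.41%) and 0 lower. Over all genes it called 1.25% higher and 0.828% lower. DESeq2 called 4 of the 27 higher (Arrb1, Grk5, Grk6 and Prkca) and 1 lower (Adrbk2). It called more genes in general, 678 higher and 502 lower over all genes against 212 and 140 by edgeR. Arrb1, which encodes the arrestin that uncouples activated receptors from G proteins, rose from 376 ± 12.8 CPM (SD, n = 3) to 575 ± 29.0 CPM (SD, n = 4). It was at 617, 562, 551 and 570 CPM in the 4 knockouts and 388, 362 and 378 CPM in the 3 controls, so that the groups stood well apart. The log2 fold change was 0.61 (SE 0.0604, edgeR adjusted p = 0.00276), and the gene was called in all 17 alternatives, with adjusted p from 5.73e-24 to 0.0323. Its relative Arrb2 was at 49.6 ± 2.78 and 46.8 ± 4.11 CPM (log2 fold change 0.08, adjusted p = 0.620).

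Grk5, a kinase that phosphorylates activated receptors, rose from 27.4 ± 1.13 CPM (SD, n = 3) to 34.6 ± 1.79 CPM (SD, n = 4). It was at 37.0, 33.5, 33.1 and 34.9 CPM in the knockouts and 27.5, 28.5 and 26.3 CPM in the controls, which did not overlap. The log2 fold change was 0.34 (SE 0.0583, edgeR adjusted p = 0.0280). The call of Grk5 was lost when knockout 1, 2 or 4 or control 1 or 3 was left out, with adjusted p from 0.0654 to 0.132, and without both libraries numbered 3 (0.0579). It was also lost with the share outside features (0.280) or Xist (0.114) as a covariate, and over all alternatives its adjusted p ran from 1.33e-05 to 0.280. The related kinases Grk6 (log2 fold change 0.18, adjusted p = 0.106) and Adrbk2 (-0.16, adjusted p = 0.135) were not called by edgeR, though their groups did not overlap. Gnaq, the alpha subunit of Gq, was at 242 ± 14.1 and 220 ± 4.05 CPM (log2 fold change 0.13, adjusted p = 0.287). Itpr1, the calcium release channel opened after phospholipase C activation, was at 4550 ± 567 and 3865 ± 505 CPM (0.24, adjusted p = 0.384).

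Among genes that make and remove the peptides, 1 fell. Pcsk1, a convertase that cuts peptide precursors, fell from 21.6 ± 6.41 CPM (SD, n = 3) to 10.4 ± 0.803 CPM (SD, n = 4). It was at 11.4, 10.0, 10.5 and 9.54 CPM in the knockouts and at 14.5, 26.8 and 23.6 CPM in the controls, so that the knockouts were tight and control 1 was nearer to them than the other controls were. The log2 fold change was -1.06 (SE 0.189, edgeR adjusted p = 0.0363). The call was lost with the replicate block (adjusted p = 0.129), with the share outside features (0.0747) or Xist (0.114) as a covariate, without both libraries numbered 3 (0.125), and without knockout 1, 2 or 4 or control 2 or 3 (0.0533 to 0.143), within a range of 1.89e-06 to 0.143. Of the other genes of this group, Prep, which cleaves small peptides after proline, had a log2 fold change of -0.08 (adjusted p = 0.455), the amidating enzyme gene Pam 0.06 (0.750) and the carboxypeptidase gene Cpe 0.06 (0.705).

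Aminopeptidases of the same family as Lnpep were not called. Of 9 that passed the filter 0 were called by edgeR, 2 had an unadjusted p below 0.05, and DESeq2 called 1 higher, Enpep. Enpep, which cleaves angiotensin, was at 3.64 ± 0.308 CPM (SD, n = 4) in the knockouts and 2.59 ± 0.133 CPM (SD, n = 3) in the controls, with a log2 fold change of 0.49 (edgeR adjusted p = 0.0795). Trhde, the enzyme that degrades thyrotropin-releasing hormone, had 0.20 (adjusted p = 0.203), Rnpep 0.17 (0.384) and 2010111I01Rik 0.10 (0.606). Of 9 genes for proteins that travel or bind with Lnpep in insulin-responsive vesicles, 0 were called by edgeR or DESeq2 and 1, Stx4a, had an unadjusted p below 0.05 (-0.11, edgeR adjusted p = 0.273). Sort1, Tnks and Tnks2 had log2 fold changes of 0.15, 0.23 and -0.09 (adjusted p = 0.378, 0.398 and 0.388).

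Over these pathway lists as a whole 55 genes were tested. EdgeR called 2 higher, or 3.64% beside 1.25% of all genes, and 1 lower, or 1.82% beside 0.828%. The median log2 fold change was 0.03 in the lists and -0.00 over all 16905 genes, and 18.2% against 16.2% had an unadjusted p below 0.05. The shares of the lists rest on 3 genes, Arrb1, Grk5 and Pcsk1.

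**Figure D3:**
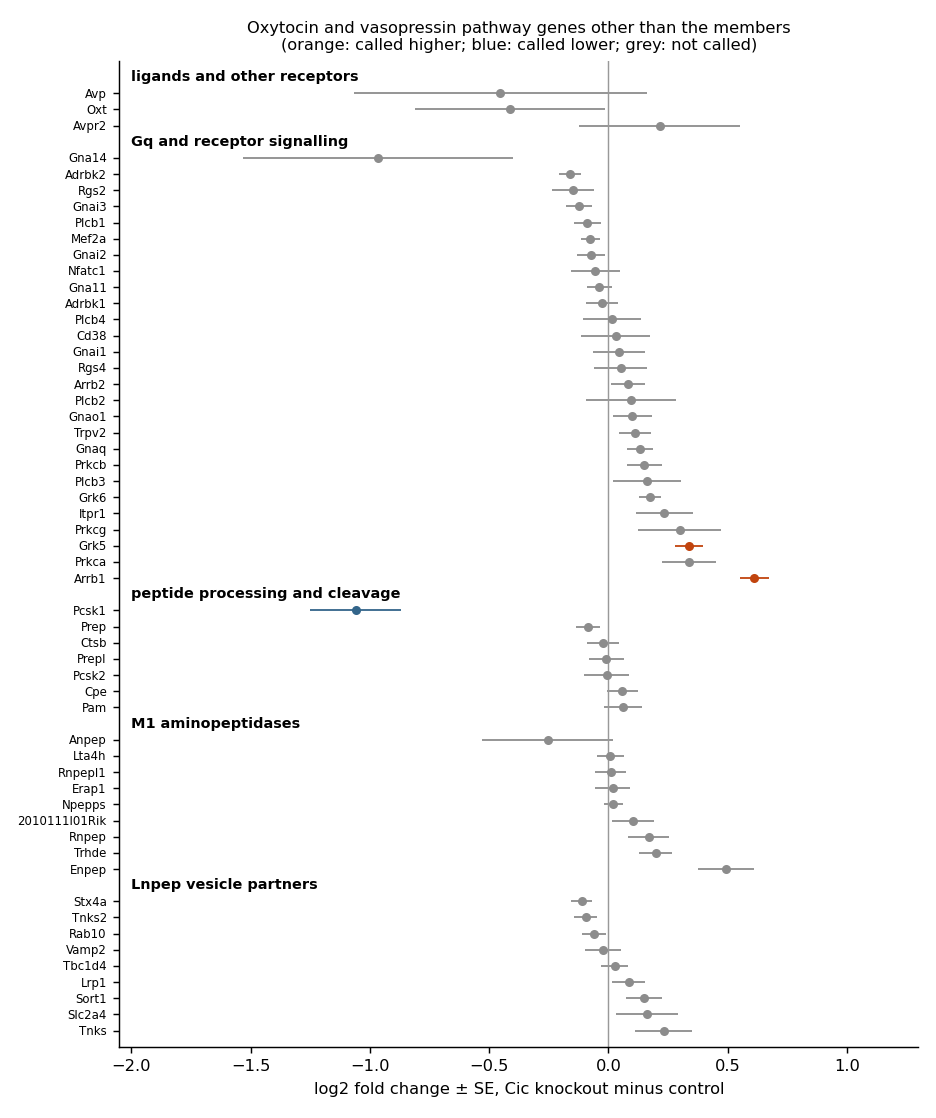
Log2 fold change with SE (knockout minus control) from edgeR for the 55 tested genes of the oxytocin and vasopressin pathway lists, grouped by role. Arrb1 (0.61) and Grk5 (0.34) are called higher and Pcsk1 (-1.06) lower; all others are not called.

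The pattern of each family member over the 7 libraries was set beside that of other genes. Over genes whose mean reached 1 CPM, likeness was the root mean square difference of log2(CPM + 0.5) after the mean of each gene was removed, so that a small value means the same shape and size of change. Chromosome Y genes, Xist, unnamed gene models and pseudogenes were left out. Among the 13154 other genes that remained, the most like Oxtr were Actl10 (0.18), Necab3 (0.20), Tph2 (0.26) and Etv5 (0.28). Actl10 encodes an actin-like protein and lies within the span of Necab3, the gene of a calcium-binding protein, on the opposite strand. GENCODE M21 lists no exonic bases shared by these 2 genes, and whether the counting shared reads between them was not tested. Tph2 encodes the enzyme that begins serotonin synthesis in neurons, and Etv5 an ETS transcription factor known as a CIC target.

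Like Oxtr, Actl10, Necab3 and Tph2 had their lowest knockout level in knockout 3. Tph2 was at 4.57, 5.07, 1.92 and 4.66 CPM in knockouts 1 to 4, and Necab3 at 106, 99.6, 57.9 and 109 CPM. Etv5 was lowest there too but varied less, with 380, 379, 356 and 401 CPM. By edgeR all 4 genes were called higher in the knockout, with log2 fold changes of 2.58 for Actl10 (adjusted p = 0.00263), 2.16 for Necab3 (0.0143), 2.26 for Tph2 (0.0227) and 2.06 for Etv5 (0.000458). Since the likeness to Oxtr picks genes with such a difference, these calls are no separate result. The likeness takes in knockout 3 as well, so the shared low level there is no separate result either. The Tph2 call was lost with the replicate block (adjusted p = 0.0810), with the share outside features (0.230) or Xist (0.0579) as a covariate, and when any library but knockout 3 was left out (0.0531 to 0.110). The Necab3 call was lost without knockout 1 (adjusted p = 0.0586) or control 3 (0.0765) and with the share outside features (0.0863) or Xist (0.0555) as a covariate. The Actl10 call was lost with the share outside features as a covariate (adjusted p = 0.0643).

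Among the genes most like Lnpep were Hmbox1 (0.07), Slain1os (0.10) and Slc9a7 (0.10), and 282 genes lay within 0.25 of it. Hmbox1 encodes a homeobox protein and Slc9a7 a sodium-proton exchanger. These 3 were higher in control 2 than in the other controls, as Lnpep was, which the choice by likeness favours. None of them was called (edgeR adjusted p = 0.515, 0.610 and 0.494). For Avpr1a the measure was uninformative, since its reads were so few that 11382 genes lay within 0.25. The nearest were B9d1, Mrps35, Ilkap and Emg1, with log2 fold changes of -0.04, -0.07, -0.05 and -0.03.

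**Figure D4:**
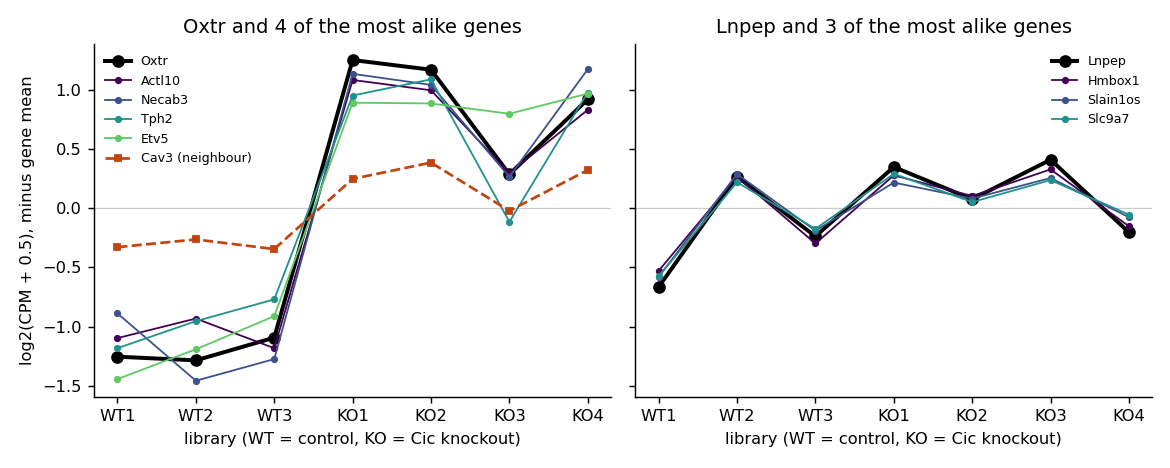
Mean-centred log2(CPM + 0.5) by library (WT = control, KO = knockout) for Oxtr and Lnpep (black), the 4 genes most like Oxtr and 3 of those most like Lnpep (thin lines) and, on the left, Cav3 (dashed). Knockout 3 is the lowest knockout for Oxtr, Actl10, Necab3, Tph2 and Cav3, and control 2 is raised for Lnpep and the 3 genes beside it. The genes in thin lines were chosen by their likeness over these libraries, so their shared pattern is no separate result.

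Markers of cell types that could carry these transcripts were measured in the same libraries. Of 7 tested genes of serotonin neurons edgeR called 1 higher, Tph2, or 14.3% beside 1.25% of all genes, and 0 lower, where DESeq2 added Ddc. Tph2 had been picked above for its likeness to Oxtr, so its call is no separate result. The summed level of the list was 19.6 to 22.1 CPM in knockout libraries against 14.7 to 16.5 CPM in control libraries. The difference of the sum lay mainly in Tph2 and in Ddc, which encodes an enzyme shared by all monoamine neurons (6.74 ± 0.701 CPM, SD, n = 4, and 4.88 ± 0.183 CPM, SD, n = 3). Fev, Htr1a and Slc18a2 had negative log2 fold changes, of -0.67, -1.07 and -0.16 (edgeR adjusted p = 0.419, 0.386 and 0.518). The serotonin transporter gene Slc6a4 was near 0 throughout (0.0616 to 0.196 CPM and 0.0280 to 0.105 CPM), and the transcription factor gene Fev was at 0.149 to 0.335 and 0.245 to 0.551 CPM. Of 3 tested genes of noradrenaline and dopamine neurons 0 were called by edgeR, 2 had an unadjusted p below 0.05, and DESeq2 called Dbh and Slc6a2 higher. The summed level of this list was 32.3 to 67.0 CPM in knockout libraries against 11.0 to 29.8 CPM in control libraries, nearly all of it from Th, the gene of tyrosine hydroxylase, which was not called (edgeR adjusted p = 0.427). Dbh in knockout 4, at 0.0475 CPM, was within the range of the controls, and Dbh was highest, at 1.61 CPM, in knockout 3, where Oxtr was the lowest of the knockouts.

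Of 9 genes of Bergmann glia and astrocytes, 3 were called lower (Gdf10, Aqp4 and Agt), or 33.3% beside 0.828% of all genes. Of the 9, 8 had a negative log2 fold change and 7 had an unadjusted p below 0.05 (77.8% beside 16.2% of all genes). Their summed level was 3661 to 4155 CPM in the knockouts against 4664 to 4757 CPM in the controls. DESeq2 added Gfap among these and Mobp among the oligodendrocyte genes. Cldn11 was called lower by edgeR among 6 oligodendrocyte genes, which summed to 3383 to 5453 and 4553 to 5798 CPM. That single call made up 16.7% of the list, beside 0.828% of all genes. All 6 had a negative log2 fold change, with a median of -0.31. An unadjusted p below 0.05 was found for 2 of them (33.3% beside 16.2% of all genes). EdgeR called 0 genes of Purkinje cells, granule neurons, molecular layer interneurons and Golgi cells, unipolar brush cells, microglia, endothelium and pericytes, and choroid plexus, where 0, 0, 2, 1, 0, 0 and 0 had an unadjusted p below 0.05 and DESeq2 called 1 interneuron gene, Kit, higher. Of 5 tested genes of steroid receptors and hypothalamic peptide neurons 0 were called by edgeR or DESeq2 and 2, Esr1 and Crh, had an unadjusted p below 0.05. Otp and Pmch had at most 3 reads in any library. The part of these cell types in the Oxtr levels was not tested.

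Oxtr kept its size in each alternative analysis. Its log2 fold change lay between 2.26 and 2.75 in 17 alternatives, 2.37 to 2.67 when 1 library was left out, and was 2.44 with the replicate block. That of Lnpep ranged from -0.071 to 0.62, and the log2 ratio of the Avpr1a group means from -0.81 to -0.17 in 10 alternatives.

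**Figure D5:**
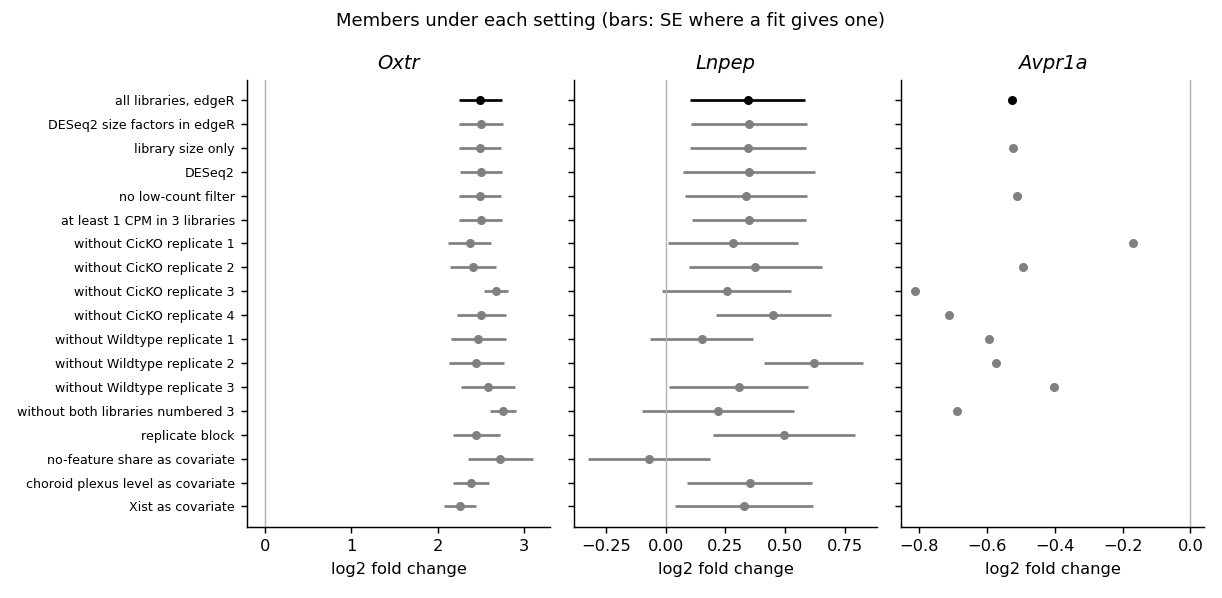
Log2 fold change (knockout against control) of Oxtr, Lnpep and Avpr1a with all libraries (black) and under each alternative (grey), with SE where a model gives one; for Avpr1a the value is the log2 ratio of group mean CPM except with no low-count filter, where it is from edgeR. Oxtr stays between 2.26 and 2.75, while Lnpep lies above 0 except with the share outside features as a covariate (-0.071).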

How the data were processed

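The authors deposited raw read counts per gene symbol, 1 file per library, with 5 summary rows that were left out of library sizes. The submitters' processing notes name STAR 2.5.3a, HTSeq, DESeq2 and build mm10. Annotation and strand setting: not given in the sources used here. Counts were filtered with filterByExpr (16905 genes kept), scaled by TMM and compared by genotype with the robust quasi-likelihood F test of edgeR 4.0.16 in R 4.3.3, adjusted by Benjamini-Hochberg over all genes and called below 0.05. The SE was taken from the log2 fold change and F. DESeq2 1.42.0 was an alternative, and the test was checked on simulated data. Exon lengths and coordinates are from GENCODE M21 (GRCm38). Counts of any 2 libraries of 1 group varied 18.5 to 157 times more than sampling gives, so none was treated as a library deposited again, which does not show that they are separate animals.

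Same-numbered libraries deviated together (correlations across genes of 0.145, 0.288 and 0.713, all over 0.1), but so did others, such as knockout 1 with control 2 (0.319). Blocked values stand beside results they change.

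The genes and lists were chosen with earlier results of these data known. Named genes are the ligands and other receptors, the called or 4 lowest-p genes of each pathway list, neighbours within 100 kilobases, and the 4 genes most like each family member, of which 1 is not reported here. The genes named from the marker lists, Arrb2, Gnaq and Itpr1 were chosen after their values were seen.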

Additional observations from a re-analysis of the deposited data

Results flagged for a closer look

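Among 4 knockout libraries, Tph2, 1 of the genes most like Oxtr, had 1 level far from the rest: knockout 3 was at 1.92 CPM and the others at 4.57 to 5.07 CPM. The gap to the nearest library took up 0.840 of the range, above Dixon's 95% critical value for 4 samples. Of the 34 genes examined in this way Tph2 was the only 1 beyond that value, and chance alone flags about 1 in 20 groups. That rate does not hold for Tph2, which was chosen for its likeness to Oxtr, itself lowest among the knockouts in knockout 3. Leaving out knockout 3 the log2 fold change of Tph2 was 2.49, against 2.26 with all libraries.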

How the results depend on the processing

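Oxtr moved by less than 1 SD of its libraries in all 17 alternatives. Lnpep went from 0.34 to -0.071 with the share outside features as a covariate (0.15 to 0.62 with 1 library left out). The Avpr1a ratio, from 1 to 12 reads per library, was -0.53, or -0.81 to -0.17 with 1 library left out and -0.69 without both libraries numbered 3. It was not refitted with the block or covariates, because it fell below the filter. At most 12 reads of Avpr1a and 1 of Avpr1b per library limit what can be seen of these receptors.

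Leaving out 1 library gave 1 to 4 pathway genes called higher, 0 to 1 lower, 0 to 1 neighbouring genes, and 65 to 493 higher and 21 to 349 lower over all genes. DESeq2 gave 5, 2, 2, 678 and 502. The share outside features gave 1, 0, 0, 46 and 12, and Xist gave 1, 0, 0, 69 and 25. The choroid plexus covariate gave 388 higher and 324 lower over all genes. Without both libraries numbered 3, and with the replicate block, 0 pathway genes were lower. With a filter of 1 CPM, 0 neighbouring genes were called, since Cav3 was then not tested. The replicate block ended the calls of Pcsk1 and Tph2 (edgeR adjusted p = 0.129 and 0.0810). It changed no other call among the pathway genes, the neighbours, the genes most like each family member and Cic. The calls of Gdf10, Aqp4, Agt and Cldn11 were not followed over the alternatives other than DESeq2. The causes of the other changes were not tested.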
